A study of Mus musculus with 8 samples.

Results

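The cytosolic and mitochondrial chaperones of tumor-derived granulocytic myeloid-derived suppressor cells (Gr-MDSCs) were described across 8 Affymetrix mouse arrays. Members were the genes with a probe set of their own whose symbol begins with Hspa, Hspb, Hsph, Hsp90, Dnaja, Dnajb or Dnajc, together with the genes of the chaperonins and of the heat shock factors, and without the chaperones named for the endoplasmic reticulum (Hspa5, Hspa13, Hsp90b1, Dnajb9, Dnajb11, Dnajc3) and Hspbap1. Of the heat shock factors of the rule only Hsf2, and of the cytosolic HSP90 genes only Hsp90aa1, was analysed here. There were 75 such genes with 182 probe sets, of 18193 genes and 45101 probe sets on the array. Each gene was represented by its probe set with the highest mean signal, and for 66 genes that probe set lay among the 30025 tested, those with a mean log2 signal of at least 3.98. The symbol rule also admits J proteins that do not reside in the cytosol or mitochondria, such as Dnajb14 and Dnajc10 of the endoplasmic reticulum, and Hspbp1, which is no small heat shock protein but an exchange factor of HSP70.

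The Gr-MDSCs were treated ex vivo for 6 h with Dactolisib (0.1 µM, 2 arrays), a dual inhibitor of PI3K and mTOR, with Dasatinib (0.1 µM, 2 arrays), an inhibitor of Src family and Abl kinases, or with DMSO (4 arrays, numbered 2 to 5). All groups came from prostate tumors of castrated male CPPSML mice on an enzalutamide diet. Among other alleles these mice carry floxed p53 and Smad4 (p53L/L and Smad4L/L), the Cre reporter mTmGL/+, a luciferase allele that Cre turns on (LSL-LucL/+), and the transgene PB-Cre+. The mice were 8 to 12 weeks old at the start and 12 to 16 weeks old by the sample labels, and castration followed once the tumor had reached 150 mm3, with 4 weeks on the diet thereafter. PB-Cre is driven by a probasin promoter, which acts in prostate epithelium, so the deletions concern the tumor cells and not the Gr-MDSCs. The cells were isolated with magnetic beads as CD11b+ Ly6G+ Ly6C low. Nothing in the sources says whether the arrays of a group came from separate animals, so p-values measure only the spread between these arrays.

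Chaperones bind unfolded protein and release it in cycles driven by ATP. HSP70 proteins take up short stretches of unfolded chain, J proteins (the DNAJ family) bring them substrate and start ATP hydrolysis, and exchange factors such as the HSP110 proteins let the substrate go. HSP90 acts later, on kinases and receptors that are nearly folded, while small heat shock proteins hold unfolding protein without using ATP. The chaperonins are closed barrels: TRiC, of subunits Tcp1 and Cct2 to Cct8, folds actin and tubulin in the cytosol, and Hspd1 (HSP60) with its lid Hspe1 (HSP10) folds protein in the mitochondrial matrix, behind the import motor Hspa9 (mortalin). Many of these genes carry heat shock elements, inverted repeats of GAA to which heat shock factors bind, in their promoters.

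Such repeats were searched in RefSeq windows of 300 bases (250 before to 50 after each gene start, GRCm38.p6), which were at hand for 62 of the 75 members. A pair of facing units, GAANNTTC or TTCNNGAA, stood in 19 of 62 members (30.6%), against 4587 of 27025 genes with a window (17.0%). A run of 3 units, GAANNTTCNNGAA or TTCNNGAANNTTC, stood in 4 members, Hspd1, Hspe1, Hsph1 and Dnajb6 (6.45%), against 179 genes (0.662%). Each pattern was read on both strands, and every 3-unit run also holds a 2-unit pair. Hspd1 (chr1:55077833-55088243) and Hspe1 (chr1:55088148-55091317) lie head to head, and their windows share 285 bases, so they are counted on the same letters. The windows below are those of some genes of the following results, each with a match, shown in capitals. They are the shared mitochondrial chaperonin promoter, the TRiC subunit that passed the test and the HSP110 gene Hsph1. Hspb1, the gene of widest range, and inducible HSP70 follow. Other genes of the results also have a window with a match that is not shown. Among them are Cct2, Cct5, Dnaja1, Dnaja4, Dnajb4, Dnajc10, Hspb6 and Hspb8. Further genes of the results lack a match. The window of Dnajb14, which also passed, held none, and for Dnajc30, which passed too, no window was at hand. Those of Dnaja3, Cct3, Tcp1 and Dnajb1 held none either.
Hspe1, chr1:55087898-55088197, plus strand: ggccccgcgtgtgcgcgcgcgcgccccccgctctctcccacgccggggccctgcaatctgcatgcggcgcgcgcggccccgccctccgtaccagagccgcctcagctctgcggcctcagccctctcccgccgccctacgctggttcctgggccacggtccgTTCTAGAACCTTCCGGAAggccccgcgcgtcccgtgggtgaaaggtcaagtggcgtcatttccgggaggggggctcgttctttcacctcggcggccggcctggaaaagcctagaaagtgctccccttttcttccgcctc
Cct6a, chr5:129787106-129787405, plus strand: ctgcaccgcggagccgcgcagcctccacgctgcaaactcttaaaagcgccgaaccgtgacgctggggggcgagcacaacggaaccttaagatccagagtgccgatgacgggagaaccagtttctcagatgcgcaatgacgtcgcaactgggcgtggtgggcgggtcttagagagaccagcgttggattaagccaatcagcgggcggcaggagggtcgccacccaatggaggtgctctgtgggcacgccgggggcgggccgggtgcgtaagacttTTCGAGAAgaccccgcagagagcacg
Hsph1, chr5:149636266-149636565, minus strand: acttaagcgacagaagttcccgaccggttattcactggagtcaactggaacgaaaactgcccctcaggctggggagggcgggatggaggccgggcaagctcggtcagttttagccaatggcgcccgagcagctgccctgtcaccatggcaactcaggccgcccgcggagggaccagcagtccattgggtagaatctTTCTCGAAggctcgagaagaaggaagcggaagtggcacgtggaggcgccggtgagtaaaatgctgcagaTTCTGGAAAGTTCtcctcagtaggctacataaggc
Hspb1, chr5:135887669-135887968, plus strand: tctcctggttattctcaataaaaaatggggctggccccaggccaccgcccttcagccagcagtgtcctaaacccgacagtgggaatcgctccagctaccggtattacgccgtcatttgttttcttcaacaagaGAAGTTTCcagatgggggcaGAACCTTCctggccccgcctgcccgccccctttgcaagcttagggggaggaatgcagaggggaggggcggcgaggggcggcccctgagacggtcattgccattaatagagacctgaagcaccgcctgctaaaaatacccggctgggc
Hspa1a, chr17:34972107-34972406, minus strand: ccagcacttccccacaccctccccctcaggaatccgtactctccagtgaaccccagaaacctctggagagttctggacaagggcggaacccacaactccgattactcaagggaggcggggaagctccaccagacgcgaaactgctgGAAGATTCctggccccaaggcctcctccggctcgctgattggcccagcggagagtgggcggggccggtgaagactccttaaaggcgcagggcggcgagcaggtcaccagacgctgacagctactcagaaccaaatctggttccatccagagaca
The window of Hspa1b matched that of Hspa1a at 296 of 300 bases (98.7%). The mature messages of these neighbours are close copies as well, and the signals of their probe sets cannot be told apart with certainty. A match is a description of the letters and not evidence of binding.

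Before the drugs are considered, the arrays themselves fell into 3 sets that cross the treatments. These sets were defined from the data, by average linkage over all tested probe sets, and are no groups of the study: set A holds Dactolisib 1, DMSO 2 and DMSO 4, set B holds Dactolisib 2, Dasatinib 2 and DMSO 3, and set C holds Dasatinib 1 and DMSO 5. The lowest Spearman correlation within a set was 0.982 and the highest between sets was 0.972. Granulocyte transcripts were high throughout, with S100a8 at a log2 signal of 13.53 to 13.85. Epithelial transcripts were high as well and followed the sets: the mean of 10 epithelial markers was 11.6 to 11.9 in set C, 9.12 to 9.37 in set A and 7.14 to 7.49 in set B, and Krt8, a keratin of luminal epithelium, lay at 13.31 and 13.37 in set C, at 9.88 to 10.43 in set A and at 8.09 to 8.33 in set B. In bulk RNA of this kind fewer cells of a type and less RNA per cell cannot be told apart.

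Chaperone signal differed between the array sets. On both arrays of set C, 35 of 66 members lay above all other 6 arrays (53.0%), where 24.6% of all 14238 genes did so. Below all others lay 9 members (13.6%), where 29.4% of all genes did. The median difference of set C from the other sets was 0.29 over the members and -0.11 over all genes. These are descriptions with no test, since every probe set entered the clustering. The small heat shock protein Hspb1 (HSP27), which is abundant in epithelia, had the widest range of all members, with log2 signals of 13.12 on Dasatinib 1 and 13.04 on DMSO 5, against 9.92, 10.18 and 9.97 on Dactolisib 1, DMSO 2 and DMSO 4, and 7.93, 8.20 and 7.94 on Dactolisib 2, Dasatinib 2 and DMSO 3. Its order of sets is that of the epithelial markers, whose part in this was not tested. Hspb8, a small heat shock protein that works with Bag3 in autophagy, measured 7.96 and 8.18 in set C, against 5.60 to 5.92 in the other sets.

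The chaperonins stood out in the same way. Of 9 TRiC genes, 8 lay highest on both arrays of set C, with a median difference of 1.16, and Cct6b, a testis form of the Cct6 subunit, was the exception. All 5 genes grouped here as mitochondrial chaperones (Hspd1, Hspe1, Hspa9, Dnaja3 and Dnajc15) did so too, with a median of 1.06. Dnajc30, a mitochondrial J protein counted with the DNAJC genes, was 0.24 lower in set C. Hspd1 measured 10.12 on Dasatinib 1 and 10.24 on DMSO 5, and 7.86 to 8.33 on the other 6 arrays. Hspe1 was 1.94 higher there than on the others. Hspa9, the import motor, was 1.06 higher. The HSP110 genes Hspa4 and Hsph1 were 1.28 and 1.13 higher in set C, and the J protein genes Dnajb4 and Dnaja4 were 1.33 and 1.14 higher. Dnajc21, known for maturation of the large ribosomal subunit, measured 7.53 and 7.67 in set C, against 5.66 to 6.44 elsewhere. The inducible HSP70 and HSP90 genes did not follow this pattern. Hspa1a was the lowest in set C, at 12.19 and 12.19 against 12.40 to 12.82, and Hsp90aa1, the inducible HSP90, was 0.19 lower there. Hspa1b differed by 0.02. Constitutive Hspa8 did lie highest in set C, at 12.10 and 12.21 against at most 11.96, a difference of 0.27 beside the member median of 0.29.

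**Figure D1:**
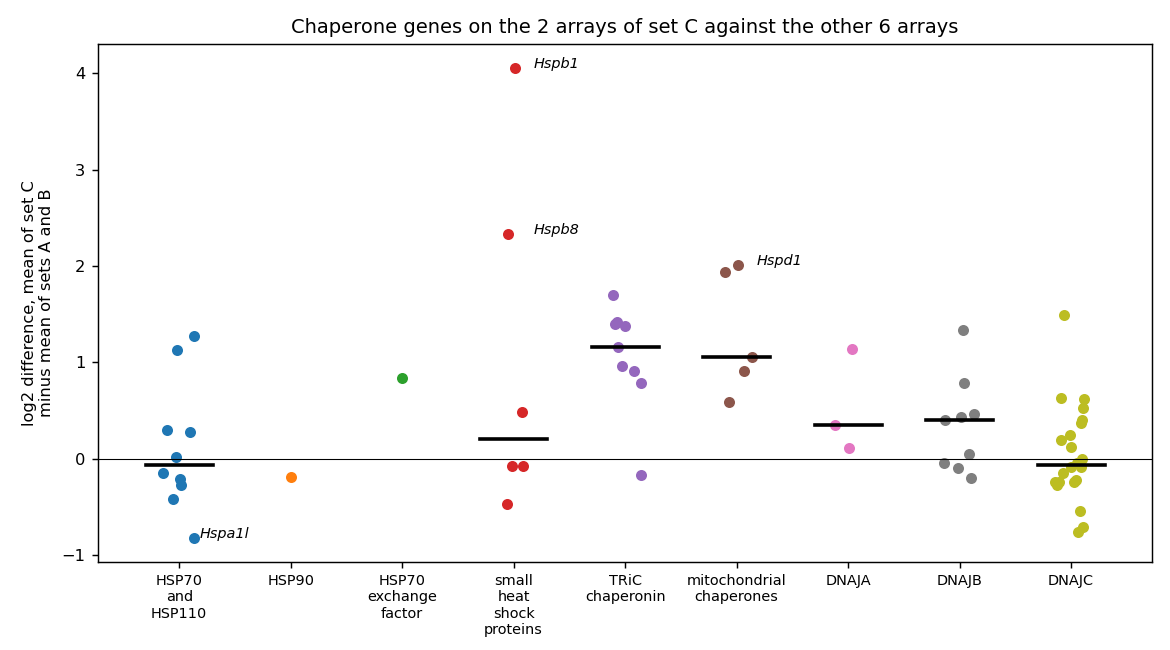
Difference in log2 signal between the mean of the 2 arrays of set C (Dasatinib 1 and DMSO 5) and the mean of the other 6 arrays, for 66 chaperone genes by role. Each point is 1 gene and each black bar a group median: 1.16 for TRiC and 1.06 for mitochondrial chaperones, with Hspb1 the farthest at 4.06.

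**Figure D2:**
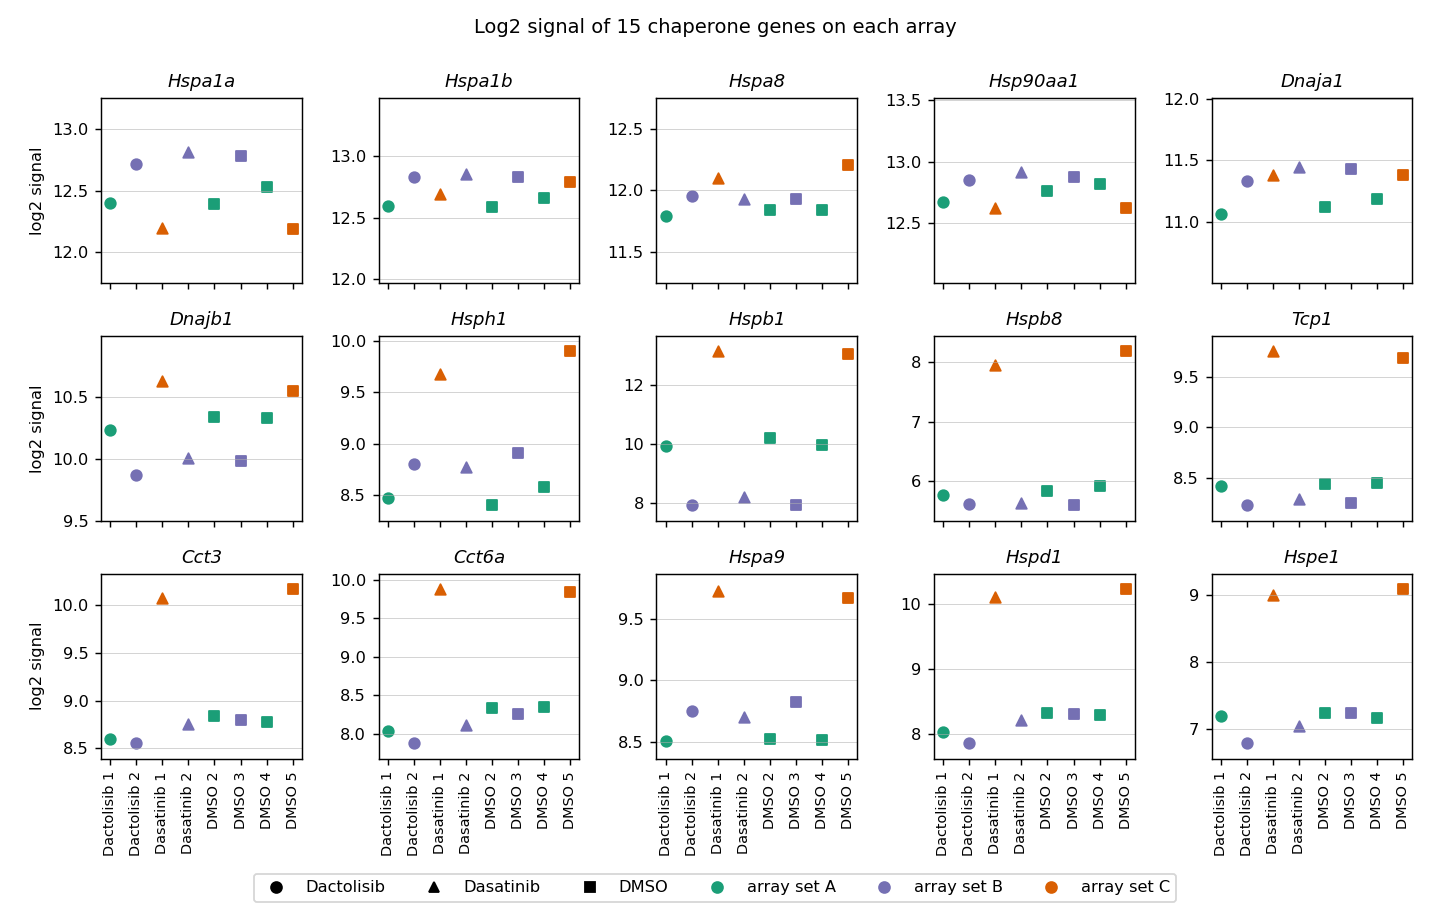
Log2 signal of 15 chaperone genes (y axes, each with its own range) on each of the 8 arrays (x axis), with treatment as the marker shape and array set as the color. Hspb1 separates by color and not by shape, Hspd1 and Cct6a are highest on both arrays of set C, and Hspa8 keeps within 0.42 over all arrays.

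Dactolisib was first compared with DMSO on the 2 and 4 arrays without regard to the sets, as in the methods of the study. With limma and an adjusted p of 0.05 as the threshold, 0 of 66 members passed in either direction, as did 0% of all genes, and the lowest adjusted p among the members was 0.775. At an unadjusted p of 0.05, 1 member was higher (Hspb6) and 2 were lower (Dnajb14 and Dnajc10), where 2.73% and 3.72% of all genes were, and the methods' t-test had 0 and 0. The median member difference was -0.13, and it was -0.05 without DMSO 5, whose set holds no Dactolisib array. The spread between array sets enters this comparison in full. Hspd1 averaged 8.79 ± 0.96 in DMSO (SD, n = 4), and its difference was -0.85 ± 0.59 (SE). Its 95% interval was -2.29 to 0.59. For genes that vary little between sets the interval is narrower. Hspa8 measured 11.79 and 11.96 under Dactolisib and 11.96 ± 0.17 in DMSO, with an interval of -0.43 to 0.27.

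Within array sets each Dactolisib array is set against the DMSO arrays of its own set, in a limma fit with the set as a block, which rests on Dactolisib 1 and 2 and on DMSO 2, 3 and 4. In this and every later fit within array sets, the sets come from these same values, drug arrays included. The spread within them, and with it p, may therefore be too small. Under Dactolisib 4 of 66 members fell (6.06%), against 4.66% of all 14238 genes, and 0 rose, against 2.24% of all genes. The share of members that passed is thus close to that of all genes. The genes that fell were Hspd1, Cct6a, Dnajb14 and Dnajc30. At an unadjusted p of 0.05, 15 of 66 members were lower and 3 of 66 higher, where 2155 and 1305 of 14238 genes were (15.1% and 9.17%). The median difference was -0.07 over the members and -0.002 over all genes. The count moved with single arrays: 0 members passed without Dactolisib 1, Dactolisib 2 or DMSO 3, 2 without DMSO 4, and 7 (6 lower and 1 higher) without DMSO 2. With quantile normalization 2 passed (Dnajb14 and Dnajc30), and with no filter on signal 1 (Dnajb14). The shares of all genes under these settings are not given here, so the shifts are no result about the members in particular.

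The mitochondrial chaperones had the lowest median of the role groups, at -0.35, and all 5 were lower on both Dactolisib arrays than the mean of the DMSO arrays of the same set, as were 35.4% of all genes. This mean is meant wherever an array is set against DMSO of its own set, and for set A it is that of DMSO 2 and DMSO 4. On Dactolisib 1 the differences of Hspe1 and Hspa9 from it were only -0.005 and -0.02. Hspd1, the matrix chaperonin, measured 8.03 and 7.86 under Dactolisib, against 8.33, 8.31, 8.30 and 10.24 in DMSO 2 to 5. Both Dactolisib arrays lay below every DMSO array, and Hspd1 fell by 0.36 ± 0.08 (SE) within array sets (limma, adjusted p = 0.0478). Hspe1, its lid, measured 7.20 and 6.79 under Dactolisib, against 7.24, 7.24, 7.16 and 9.09 in DMSO. Dactolisib 1 lay above DMSO 4 and only Dactolisib 2 was clear of the DMSO arrays, and the difference of -0.20 ± 0.11 did not pass (limma, adjusted p = 0.347). Whether Hspd1 and Hspe1, which share a promoter region, differ from each other was not tested.

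Dnaja3 (Tid1), a J protein partner of Hspa9, measured 6.38 and 6.14 under Dactolisib, against 6.62, 6.55, 6.79 and 7.46 in DMSO. The groups did not overlap, yet its difference of -0.36 ± 0.09 missed the threshold (limma, adjusted p = 0.056), while its other tested probe set fell by 0.47 (adjusted p = 0.0207). Dnajc15, a J protein of the inner membrane that is known to restrain respiratory complex I, measured 6.52 and 5.76 under Dactolisib, against 6.72, 6.33, 6.69 and 6.97 in DMSO, a difference of -0.35 ± 0.10 (adjusted p = 0.091). Its value on Dactolisib 1 lay among those of DMSO. Hspa9 measured 8.50 and 8.75 under Dactolisib, against 8.52, 8.82, 8.52 and 9.66 in DMSO, a difference of -0.04 with a 95% interval of -0.22 to 0.14. Its 5 tested probe sets ranged from -0.04 to 0.10.

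The TRiC chaperonin followed with a median of -0.22. Of its 9 genes 7 were lower on both Dactolisib arrays than in DMSO of the same set (77.8%, against 35.4% of all genes). Cct6a measured 8.04 and 7.88 under Dactolisib, against 8.33, 8.26, 8.35 and 9.84 in DMSO. All DMSO arrays were higher than both Dactolisib arrays, and Cct6a fell by 0.34 ± 0.08 (limma, adjusted p = 0.0467), with its other probe set at -0.49 (adjusted p = 0.0293). Cct5 measured 9.09 and 8.88 under Dactolisib, against 9.37, 9.23, 9.41 and 10.21 in DMSO, a difference of -0.32 ± 0.08 just outside the threshold (adjusted p = 0.053). Cct2, Cct3 and Cct8 each differed by -0.22, none past the threshold on the probe set of highest signal, but 3 of the 6 tested probe sets of Cct3 fell, by 0.38 to 0.52. Whether the subunits differ from each other was not tested. Tcp1 measured 8.42 and 8.23 under Dactolisib, against 8.44, 8.25, 8.45 and 9.69 in DMSO, with an interval of -0.20 to 0.16, and Cct4 had a difference of 0.18 that did not pass (adjusted p = 0.220).

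Among J proteins of other sites, Dnajb14, which spans the membrane of the endoplasmic reticulum with its J domain toward the cytosol, measured 5.55 and 5.90 under Dactolisib, against 5.99, 6.29, 6.02 and 6.08 in DMSO. The groups did not overlap, and it fell by 0.43 ± 0.08 (limma, adjusted p = 0.0246), as did its other probe set, by 0.48 (adjusted p = 0.0482). Dnajc30, found in mitochondria in human cells, measured 7.82 and 7.61 under Dactolisib, against 8.11, 8.21, 8.14 and 7.64 in DMSO. It overlapped DMSO 5 alone, which is of the set without a Dactolisib array, and it fell by 0.43 ± 0.09 within sets (adjusted p = 0.0401). Of 22 tested DNAJC genes 12 were lower and 3 higher on both Dactolisib arrays, of 9 DNAJB genes 3 and 3, and of 3 DNAJA genes 2 and 1. Dnajc10, a disulfide reductase of the endoplasmic reticulum, Dnajc9, which also chaperones histones, and Dnajb4 had differences of -0.27, -0.31 and -0.31 that did not pass (adjusted p = 0.094, 0.194 and 0.094).

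Of the cytosolic HSP70, HSP110, HSP90 and J protein genes on the list of well-known chaperones chosen for naming (Hspa1a, Hspa1b, Hspa8, Hsph1, Hsp90aa1, Dnaja1 and Dnajb1), none passed, and all had intervals across 0. Hspa1a, inducible HSP70, measured 12.40 and 12.71 under Dactolisib, against 12.40, 12.78, 12.53 and 12.19 in DMSO, with a difference of -0.07 and an interval of -0.26 to 0.13. Hsp90aa1 measured 12.67 and 12.85 under Dactolisib, against 12.76, 12.88, 12.82 and 12.62 in DMSO, with an interval of -0.26 to 0.11. Both lay inside the DMSO range. Constitutive Hspa8 had an interval of -0.20 to 0.16, Hspa1b of -0.20 to 0.16, and Hsph1 of -0.26 to 0.15. Dnajb1 (HSP40), whose message rises strongly on heat shock, measured 10.24 and 9.87 under Dactolisib, against 10.34, 9.99, 10.33 and 10.55 in DMSO, with an interval of -0.29 to 0.07. Dnaja1, a farnesylated partner of Hspa8, measured 11.07 and 11.33 under Dactolisib, against 11.12, 11.43, 11.19 and 11.38 in DMSO, with an interval of -0.27 to 0.09. The upper bounds of these listed genes lay at 0.16 or less on the probe set of highest signal. This limit does not extend to their other probe sets. Those of Dnaja1 differed by 0.15 ± 0.10 and 0.07 ± 0.09, and those of Hspa8 by -0.22 to 0.07. Dnajb4 and Dnaja4, J protein genes that are not on that list, had intervals of -0.53 to -0.09 and 0.0008 to 0.58, and neither passed.

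Of the remaining HSP70 relatives, Hspa14, a ribosome-bound form, was at -0.30 ± 0.12 and Hspa4l, an HSP110 gene, at 0.23 ± 0.09 (limma, adjusted p = 0.168 and 0.196). Hspa4 lay at -0.13. The 6 tested genes grouped as small heat shock proteins had a median of -0.02, with Hspb11 counted, which is one by name only. Hspb6 (HSP20), best known from muscle, had a low signal of 4.51 and 4.77 under Dactolisib, against 4.25, 4.42, 4.12 and 4.38 in DMSO. It lay above all DMSO arrays, with a difference of 0.33 ± 0.08 that did not pass (adjusted p = 0.058). Hspb1 differed by -0.09 ± 0.10 and Hspb8 by -0.05 ± 0.08 within sets, small beside their spread between sets. Dnaja4 was 0.29 higher (adjusted p = 0.211), through Dactolisib 2 at 0.60 and Dactolisib 1 at 0.06 above DMSO of the own set.

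**Figure D3:**
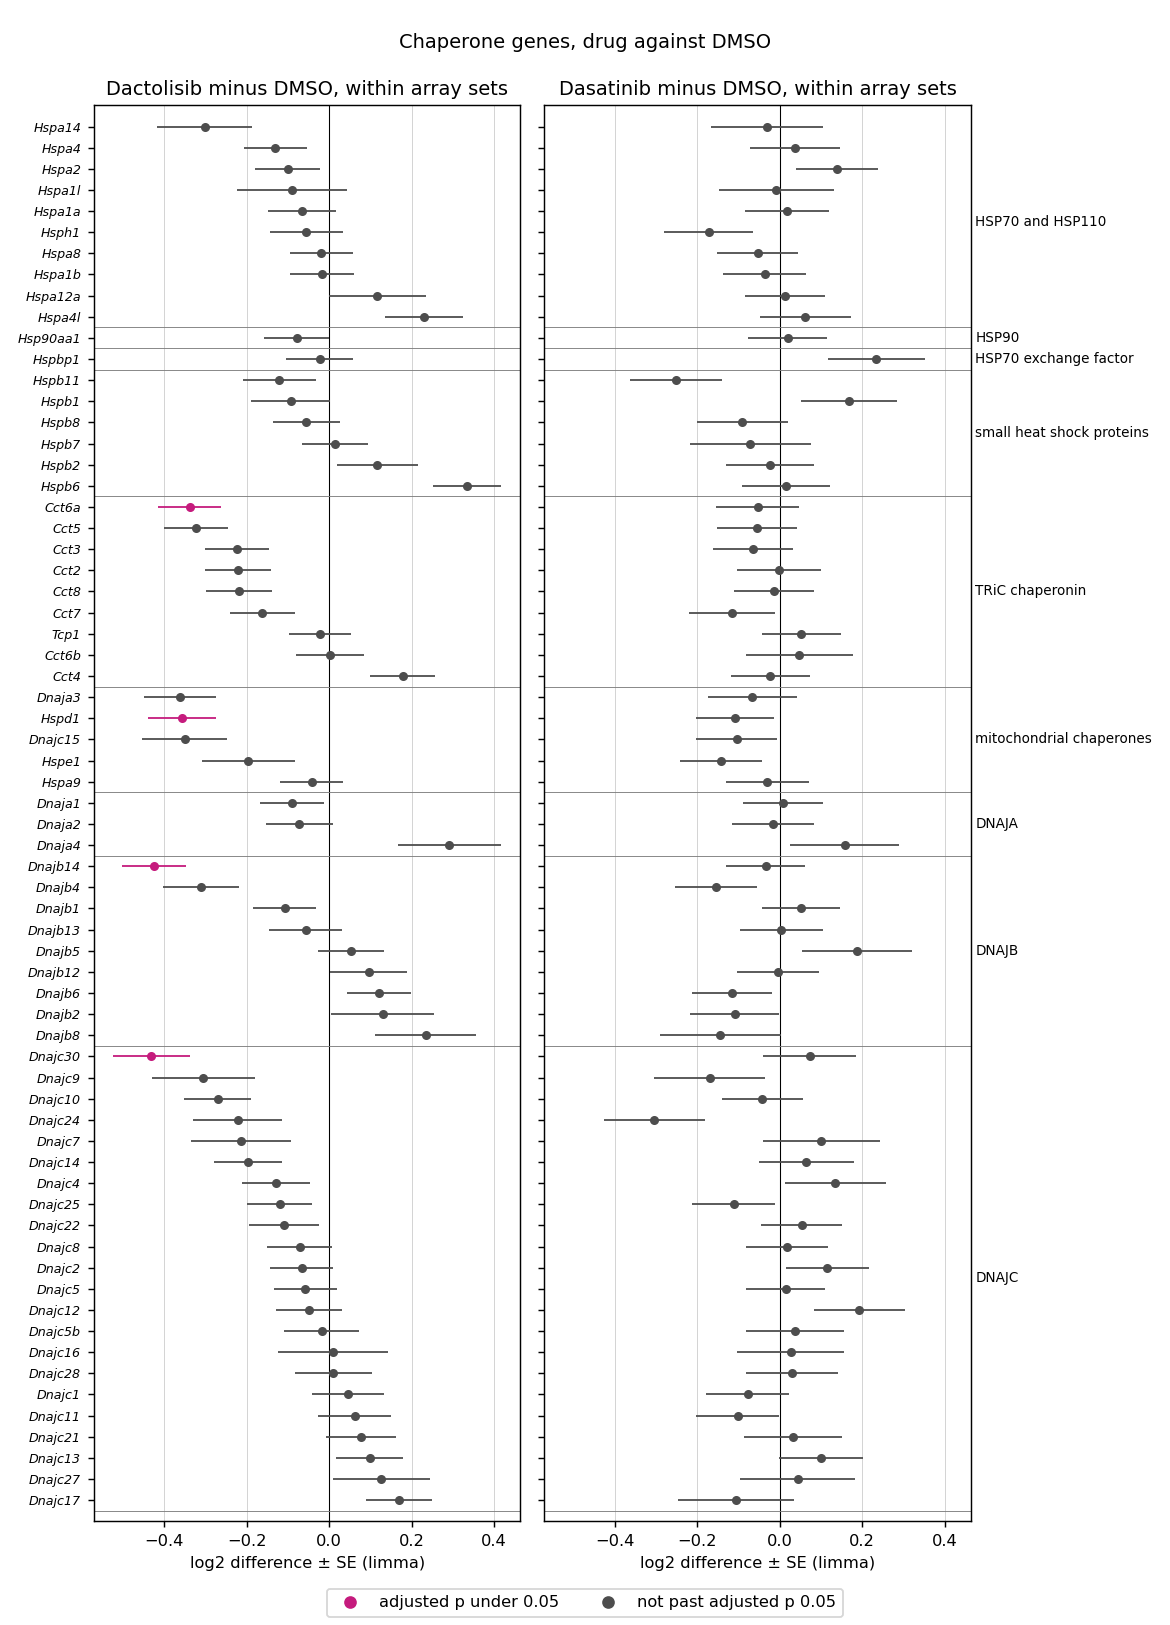
Log2 difference from DMSO within array sets (x axes, limma estimate with its standard error) of 66 chaperone genes ordered by role, for Dactolisib on the left and Dasatinib on the right. Under Dactolisib 4 genes passed an adjusted p of 0.05, all lower (Hspd1, Cct6a, Dnajb14 and Dnajc30), and under Dasatinib 0 passed.

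Taken array by array, 38 of 66 members were lower on both Dactolisib arrays than in DMSO of the own set (57.6%, against 35.4% of all genes) and 11 were higher (16.7%, against 31.6%). The member medians were -0.08 on Dactolisib 1 and -0.08 on Dactolisib 2, with -0.19 and -0.45 for mitochondrial chaperones and -0.18 and -0.24 for TRiC. For scale, the like arrays DMSO 2 and DMSO 4 differed by a median of 0.08 in size over the members, with 31 genes lower and 35 higher on DMSO 2. Of the marker lists, 3 were lower for the most part, among them that of granulocytes, the lineage of the Gr-MDSCs themselves. Of 10 epithelial markers 6 were lower on both Dactolisib arrays and 0 higher, with medians of -0.19 and -0.15 and 2 past the threshold. Of 8 macrophage markers 7 were lower, with medians of -0.29 and -0.19 and 3 past the threshold, and of 11 granulocyte markers 9 were lower, with medians of -0.13 and -0.14 and 2 past the threshold. The others did not share this direction. Of 4 tested T cell markers 0 were lower and 1 higher, as among 4 endothelial markers, and the 1 erythroid gene tested was higher. Of 5 fibroblast markers 2 were lower and 1 higher. Of 8 genes of cell dissociation and the immediate early response 1 was lower and 3 were higher, 1 of them past the threshold. The difference between 3' and 5' probe sets of Gapdh and Actb, a sign of RNA integrity, was 0.0320 and 0.0444 higher on the Dactolisib arrays, against 0.0275 between DMSO 2 and DMSO 4. The part of these values in the chaperone differences was not tested.

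**Figure D4:**
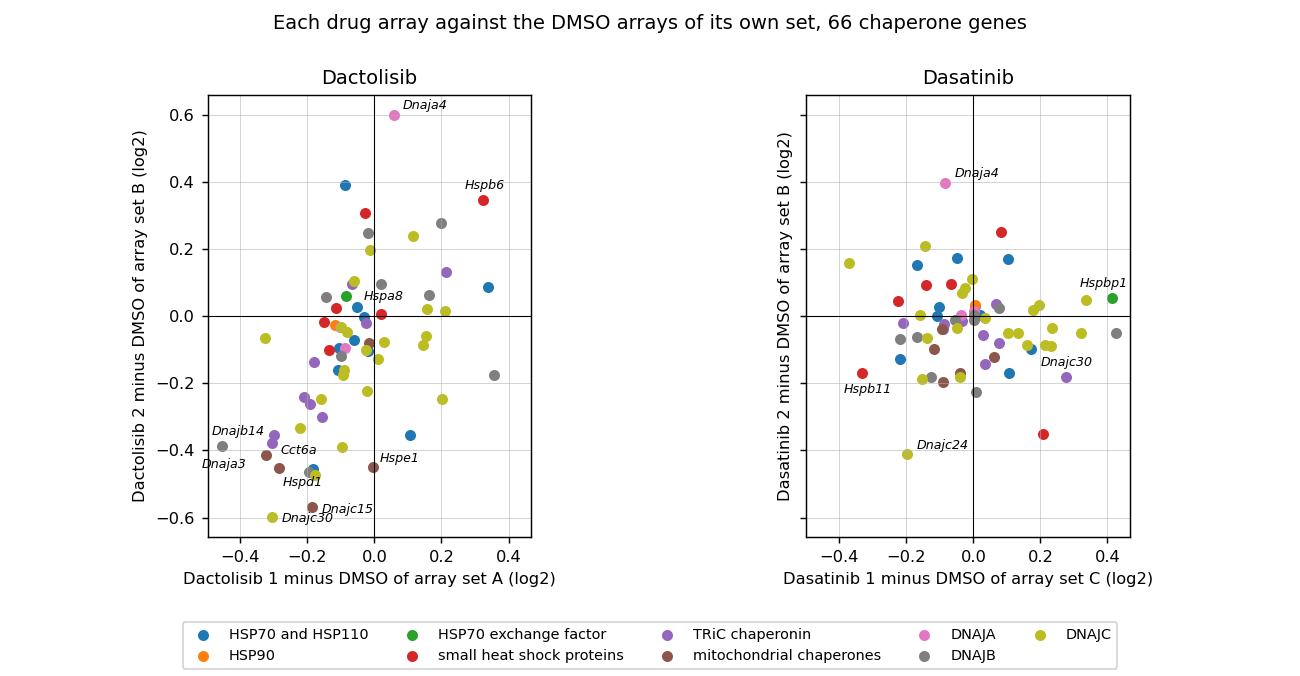
Log2 difference of 66 chaperone genes from the mean of the DMSO arrays of the same set, with drug array 1 on the x axis and drug array 2 on the y axis, for Dactolisib (left) and Dasatinib (right). Each point is 1 gene colored by role; under Dactolisib 38 lie lower left and 11 upper right, and under Dasatinib 19 and 13.

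Dasatinib was compared in the same way. Without regard to the sets 0 of 66 members passed, as did 0% of all genes, and 0 were higher or lower at an unadjusted p of 0.05, where 0.14% and 0.162% of all genes were. The median difference was 0.07, with the opposite sign without Dasatinib 1, at -0.05, and at 0.19 without Dasatinib 2. Within array sets, which leaves Dasatinib 1 against DMSO 5 and Dasatinib 2 against DMSO 3, again 0 passed (limma, lowest adjusted p = 0.850), and at an unadjusted p of 0.05 there was 1 lower member, Dnajc24, and 0 higher, where 2.1% and 1.86% of all genes were. The median difference was -0.006. On both Dasatinib arrays 19 of 66 members were lower and 13 of 66 higher than DMSO of the own set, where 3246 and 3112 of 14238 genes were (22.8% and 21.9%).

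Dnajc24, which acts in diphthamide synthesis, measured 4.77 and 4.78 under Dasatinib, against 5.14, 5.19, 4.90 and 4.97 in DMSO. All Dasatinib values were the lower ones, and its difference within sets was -0.30 ± 0.12. Hspb11, an intraflagellar transport protein in spite of its name, measured 5.78 and 5.39 under Dasatinib, against 5.58, 5.56, 5.40 and 6.11 in DMSO, and Hspbp1 measured 6.60 and 5.60, against 5.58, 5.54, 5.53 and 6.19. Against DMSO of the own set Hspb11 was lower and Hspbp1 higher on both Dasatinib arrays, and the differences of -0.25 and 0.23 did not pass. The genes that fell under Dactolisib had intervals under Dasatinib of -0.34 to 0.12 for Hspd1, -0.29 to 0.19 for Cct6a, -0.26 to 0.20 for Dnajb14 and -0.20 to 0.34 for Dnajc30. For Hspa1a, Hspa8, Hsp90aa1 and Dnajb1 the intervals were -0.22 to 0.26, -0.29 to 0.18, -0.21 to 0.25 and -0.18 to 0.28.

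Whether the drugs differ was tested directly, in a fit of all 8 arrays. Without regard to the sets 0 members passed, with a median of -0.21 for Dactolisib minus Dasatinib. It was -0.05 without Dasatinib 1, which unlike either Dactolisib array belongs to set C, and -0.37 without Dasatinib 2. At an unadjusted p of 0.05, 0 members were higher and 3 lower, where 1.44% and 2.39% of all genes were. Within array sets the median was -0.07 and again 0 passed (limma, lowest adjusted p = 0.151), as did 0% of all genes. At an unadjusted p of 0.05, 9 of 66 members were lower under Dactolisib than under Dasatinib and 2 of 66 higher. Of 14238 genes 1393 and 723 were (9.78% and 5.08%). The lowest p belonged to Dnajc30, at -0.51 ± 0.13, and to Dnajb14, at -0.39 ± 0.10 (adjusted p = 0.151 and 0.159). For Hspd1 the difference was -0.28, with an interval of -0.53 to -0.04 and an adjusted p of 0.286. The fall of these genes is therefore not shown to be particular to Dactolisib. The comparisons of each drug with DMSO share DMSO arrays.

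Co-chaperones and assembly partners that the symbol rule leaves out were followed in a list of 37 measured genes. Within array sets 2 fell under Dactolisib (5.41%, against 4.66% of all genes) and 0 rose (limma, against 2.24%), shares close to those of all genes. On both Dactolisib arrays 24 were lower (64.9%, against 35.4% of all genes) and 6 higher (16.2%, against 31.6%), and the median was -0.12. Pfdn4, a subunit of prefoldin, which hands nascent actin and tubulin to TRiC, measured 5.77 and 5.48 under Dactolisib, against 6.30, 6.09, 6.44 and 7.35 in DMSO. It lay below every DMSO array and fell by 0.60 ± 0.08 (adjusted p = 0.0135). Fkbp5, an HSP90 co-chaperone of steroid receptors, measured 8.49 and 8.22 under Dactolisib, against 8.99, 8.71, 8.82 and 8.59 in DMSO, and fell by 0.45 ± 0.09 (adjusted p = 0.0285). Grpel1, the exchange factor of Hspa9, was at -0.39 and Hscb, a J protein of iron-sulfur cluster assembly, at 0.33 (adjusted p = 0.059 and 0.058). Under Dasatinib 0 of 37 passed, and the lowest p belonged to Pfdn1 at -0.34 and Chordc1 at -0.26 (adjusted p = 0.850 for each).

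Other probe sets of the members bear on how firm these values are. Of 145 tested member probe sets 10 fell within array sets under Dactolisib and 0 rose, where 4.2% and 2.19% of all tested probe sets did. Among 40 genes with more than 1 tested probe set, 14 had a probe set whose difference had the opposite sign. Hspd1 and Dnajc30 have 1 probe set each. The 9 members outside the tested range were Hsf2, Hspa12b, Hspb3, Hspb9, Dnajb3, Dnajb7, Dnajc5g, Dnajc6 and Dnajc18, with log2 signals between 2.36 and 4.16 on all arrays. Hsf2, a heat shock factor, measured 3.31 and 3.32 under Dactolisib, 3.38 and 3.14 under Dasatinib, and 3.18, 3.12, 3.03 and 2.79 in DMSO. At this signal no statement about these genes can be made.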

How the data were processed

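RNA of 8 Gr-MDSC samples was hybridised to Affymetrix mouse arrays, and the authors deposited 1 table of log2 signals. The submitters' notes name MAS5 and the methods of the paper name another summary package, and the labels and the paper name different RNA extractions. The values were used as deposited (array medians 4.82 to 4.87). The full genotype of the mice is not reported here. Groups came from the sample titles, since the treatment field of both Dasatinib samples reads Dactolisib. Probe sets were named through the platform annotation: 34945 match 1 gene, 932 match several, and 9160 are without a gene. Controls (64) were left out. Tests used limma 3.58.1 in R 4.3.3 with Benjamini-Hochberg adjustment over 30025 probe sets. Standard errors and 95% intervals are those of limma. The calculation was tested on simulated data. The number of arrays limits the precision.

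The members, lists and array sets were chosen with earlier results of these data known. Members were named where they passed in any of 6 fits, had the lowest p or widest range of their role group, or stood on a list of 15 well-known chaperone genes. Others in the text were named after their values had been seen. Alternatives covered scaling, signal filter, low signals, prior, probe set choice, test, and leaving out each array.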

Additional observations from a re-analysis of the deposited data

Results flagged for a closer look

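In DMSO, 10 of the 49 named genes had 1 array whose gap to the nearest of the other 3 took up more of the range than Dixon's 95% critical value for 4 samples. All 10 concern DMSO 5, the only DMSO array of set C, and in 9 of them DMSO 5 was the highest. Chance alone flags about 5% of groups, but the share here is no test: many of these genes were named for their range or their low p on the same arrays, and set C was itself defined from these values. On DMSO 5, Cct2, Cct3, Cct6a and Tcp1 of TRiC measured 9.89, 10.2, 9.84 and 9.69, against at most 8.84 on the other DMSO arrays. Hspd1 and Hspe1 measured 10.24 and 9.09, against at most 8.33 and 7.24. Hspa4, Hspb8 and Hspbp1 measured 10.05, 8.18 and 6.19, against at most 8.98, 5.92 and 5.58. Dnajc17 was low, at 9.07 against at least 9.55. Dasatinib 1, the other array of set C, lay on the same side of the other 3 DMSO arrays for each of these genes. Epithelial markers averaged 11.9 on DMSO 5, and their part was not tested.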

How the results depend on the processing

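The comparisons without array sets, Dasatinib within array sets and Dactolisib with Dasatinib within array sets had 0 members past the threshold under every alternative that was run. Only the count for Dactolisib within array sets moved. The 4 members became 12 with 32 added before log2, 8 (7 lower and 1 higher) with all tested probe sets of a gene averaged, 10 with a trended and robust prior and 10 of 49 with a stricter filter (mean log2 signal of at least 5.85). They became 2 with quantile normalization and 1 with no filter, which kept Dnajb14. Leaving out 1 array gave 0 to 7. It was 0 without Dactolisib 1, Dactolisib 2 or DMSO 3, when fewer arrays carry the comparison and 0 of all probe sets passed, 2 without DMSO 4, 7 without DMSO 2 and 4 without DMSO 5. Hspd1, Cct6a, Dnajb14 and Dnajc30 kept their negative sign in each. The cause of the other shifts was not tested. The share of all genes under the other settings is not given beside these counts, so they are no result about the members in particular.

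A replicate block could be fitted only between the drugs, which share the numbers 1 and 2, and gave 0 members with a median of -0.21, the same as without it. Each drug shares only number 2 with DMSO, and nothing in the sources says that a number marks a shared animal.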

Other observations

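Subunits of the same chaperone machine had estimates of opposite sign within array sets under Dactolisib. All 5 tested probe sets of Cct4 were higher, from 0.08 to 0.19, where 6 of 6 probe sets of Cct3 were lower, from -0.005 to -0.52. None of the 5 for Cct4 passed the threshold (limma, lowest adjusted p = 0.220), and Cct4 was singled out after its values had been seen. Likewise the 5 probe sets of Hspa4l were all higher, from 0.17 to 0.33 (lowest adjusted p = 0.094), while Hspa4, the closest relative, was at -0.13. Whether these genes differ from their partners was not tested.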
